A study of Homo sapiens with 12 samples.

Results

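The mitochondrial ribosomal protein genes were taken as the protein-coding genes whose symbol begins with MRPL or MRPS followed by a number. The rule uses names and no measured value, and it selected 78 of 19951 protein-coding genes among the 58735 genes of the table, 49 with an MRPL symbol (large subunit) and 29 with an MRPS symbol (small subunit). They lie on 21 chromosomes, and all 78 passed the filter on low counts that left 16133 genes for testing. Messenger RNA was measured in 12 libraries from 2 established human pancreatic ductal adenocarcinoma lines, with 3 libraries in each group. The groups were KP4 cells in 100 nM trametinib, KP4 cells in the solvent DMSO, MiaPaca2 cells in 100 nM trametinib and MiaPaca2 cells in DMSO, all for 48 h and all grown in DMEM with fetal bovine serum. Trametinib blocks the kinases MEK1 and MEK2 at a site beside that of ATP, and so keeps ERK from being activated. Each line is 1 cell line, and whether its 3 libraries stem from different cultures is not in the labels. The p-values therefore rest on the spread between the libraries, which may be technical.

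The mitochondrial ribosome translates the few messenger RNAs of the mitochondrial genome, which encode core subunits of the respiratory chain and of ATP synthase. Its ribosomal RNAs are transcribed inside the organelle, whereas every one of its proteins is encoded in the nucleus, made in the cytosol and imported. Part of these proteins descend from the bacterial ribosome, and the others were added in mitochondria, where they replace or surround shortened ribosomal RNA. The transcription factor MYC, which ERK signalling stabilises, is known to raise many nuclear genes for mitochondria in growing tumour cells.

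Total counts ran from 20293688 to 28018129 per library. The libraries behaved as labelled for MEK inhibition, with the ERK feedback gene SPRY4 at 2.00, 2.09 and 2.26 CPM (read counts scaled for the depth and composition of the library) in KP4 trametinib against 206, 209 and 203 CPM in KP4 DMSO, and at 4.06, 3.26 and 3.10 CPM in MiaPaca2 trametinib against 214, 241 and 231 CPM in MiaPaca2 DMSO. Of 7 ductal epithelial markers, KRT8, KRT18 and SOX9 averaged at least 27.2 CPM in every group, but KRT7, EPCAM and CDH1 averaged at most 4.96 CPM in any group. KRT19 averaged 4.39 CPM in KP4 trametinib, 3.25 CPM in KP4 DMSO, 97.2 CPM in MiaPaca2 trametinib and 177 CPM in MiaPaca2 DMSO, while the mesenchymal marker VIM averaged at least 3085 CPM in every group. MiaPaca2 DMSO replicate 2 stood apart from its group. In a comparison of counts over genes, the chi-square divided by its degrees of freedom was 14.489 and 13.285 between it and replicates 1 and 3, 7.698 between those 2, and 2.015 to 2.888 between libraries of the other groups. Among the 78 genes that library had the lowest value of its group for 43 and the highest for 12, and the median coefficient of variation over the 78 was 6.92% in MiaPaca2 DMSO against 3.29%, 3.44% and 3.87% in KP4 trametinib, KP4 DMSO and MiaPaca2 trametinib.

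The genes differed widely in level. Per kilobase of their principal transcript, the mean over all 12 libraries ran from 1.24 CPM per kb for MRPL53 to 174 CPM per kb for MRPL51, with quartiles at 14.8, 39.1 and 58.5 CPM per kb. MRPL37 (132 CPM per kb), MRPL3 (119), MRPL20 (119) and MRPL4 (112) followed MRPL51. At the low end MRPL53 was followed by MRPL42 (3.69 CPM per kb, from a principal transcript of 15582 bases), MRPL23 (4.60), MRPS17 (5.36) and MRPL46 (6.38). The proteins enter a particle that holds them in fixed proportions, yet these transcripts were not at equal levels on this scale. Several genes of low level share exons with a neighbour on the same strand, which can remove reads from either gene when they are counted. The share of exon sequence was 68.19% for MRPL12, 45.24% for MRPL53, 37.48% for MRPL38, 35.77% for MRPS28 and 21.82% for MRPS17. Genes of higher level had such shares too, with 23.19% for MRPS24 (22.6 CPM per kb) and 21.05% for MRPL33 (82.6 CPM per kb). The part of shared exons in the levels was not tested.

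**Figure D1:**
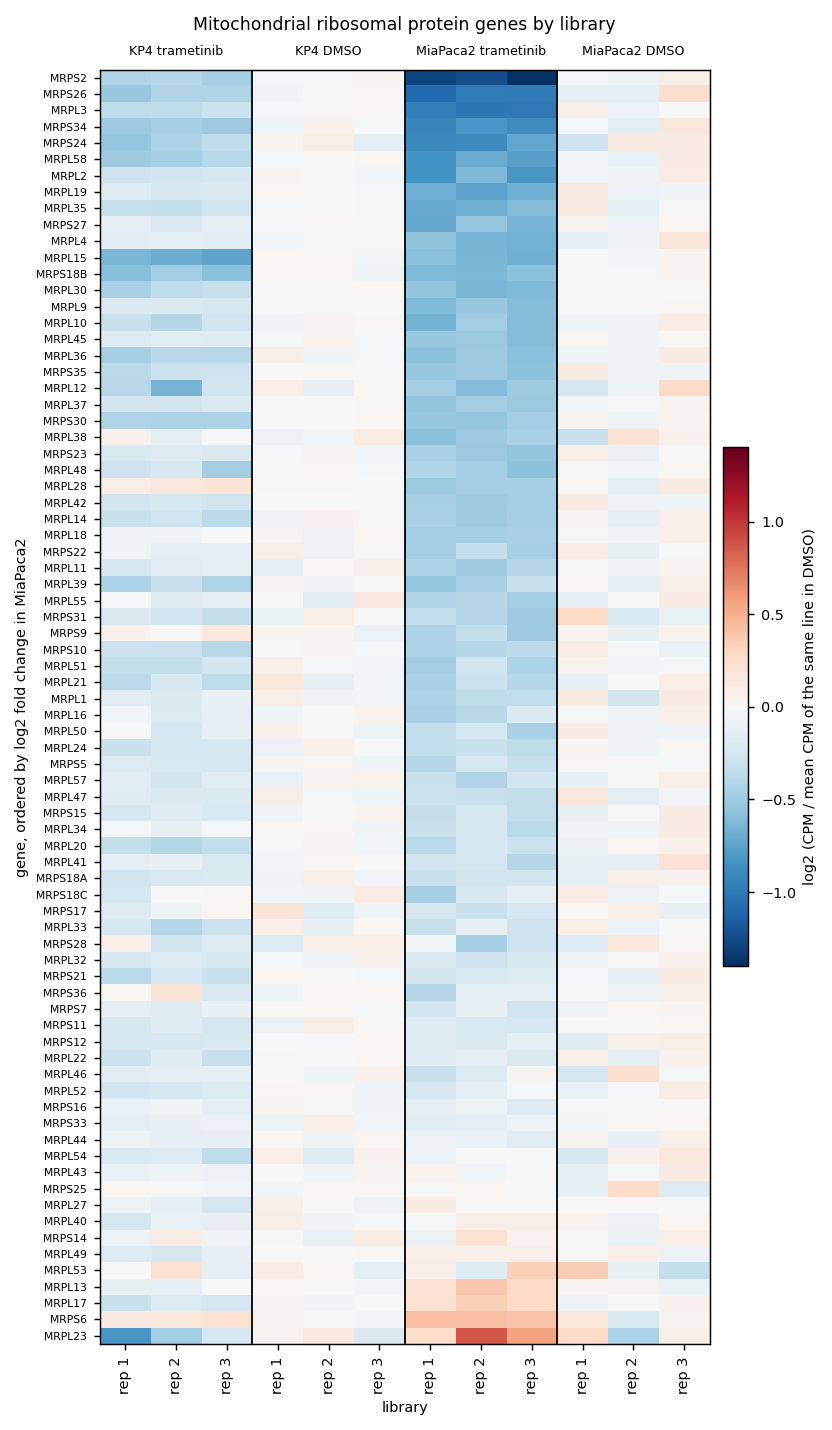
Each row is 1 of the 78 genes and each column 1 library; colour gives the log2 ratio of CPM to the mean CPM of the same line in DMSO, and rows are ordered by the log2 fold change in MiaPaca2. Blue (lower) fills most rows of both trametinib blocks, from MRPS2 at -1.30 in MiaPaca2 at the top to MRPL23 at 0.57 at the bottom.

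The first comparison asked how these genes responded to trametinib in KP4. Most fell by a small amount. Of the 78 genes 50 fell, 1 (MRPL28) rose and 27 did not pass the test, which was edgeR's quasi-likelihood test at an adjusted p under 0.05 over all genes. Over all genes tested, 47.2% were called in KP4, 23.6% lower and 23.6% higher. The median log2 fold change of the 78 was -0.21, against 0.00 over all genes, and their range was -0.69 to 0.16. The fold change was negative for 73 of them. In 60 the 3 trametinib libraries all lay below the 3 DMSO libraries (30.5% of all genes), and in 2 all lay above (29.6% of all genes). Of the called genes 0 changed by 2-fold, and the median size of the called changes was 0.27 on the log2 scale. With a log2 change of at least 0.32 in size asked as well, 18 calls were left, all lower. The share of all genes that meets this added condition was not computed. A CPM value is a share of the RNA in a library, and in bulk RNA fewer cells that use a gene and less of its RNA per cell cannot be told apart.

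MRPL15, a large-subunit protein of bacterial type (ENSG00000137547), showed the strongest fall in KP4, with 39.6, 38.1 and 37.0 CPM in trametinib against 62.9, 62.7 and 60.0 CPM in DMSO. Its log2 fold change was -0.69 ± 0.05 (SE from the fit over all 12 libraries, 3 in each group, edgeR adjusted p = 8.48e-11), and the groups lay far apart. MRPS18B, 1 of 3 human relatives of bacterial S18, had 52.6, 56.8 and 53.1 CPM in trametinib and 81.2, 81.2 and 76.5 CPM in DMSO (-0.56 ± 0.05, edgeR adjusted p = 1.25e-09). MRPS34, a mitochondrion-specific protein that the small subunit needs for its stability, had 72.4, 74.4 and 72.3 CPM in trametinib and 99.1, 107 and 102 CPM in DMSO (-0.49 ± 0.06). MRPS26, also specific to mitochondria, fell by 0.46 ± 0.08. MRPL58, a peptidyl-tRNA hydrolase built into the large subunit that releases stalled chains, had 27.7, 28 and 29.7 CPM in trametinib against 38.7, 38.9 and 39.3 CPM in DMSO (-0.45 ± 0.07, edgeR adjusted p = 3.88e-06). In each of these genes every trametinib library was below every DMSO library.

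MRPL28, a homolog of bacterial L28, was the 1 gene called higher in KP4, at 77.5, 80.9 and 83.0 CPM in trametinib against 72.0, 73.2 and 72.5 CPM in DMSO. The groups did not overlap, but the rise was small (0.15 ± 0.05, edgeR adjusted p = 0.0269), and the call was lost without KP4 DMSO replicate 1, 2 or 3 or KP4 trametinib replicate 2 or 3 (edgeR adjusted p = 0.0589 to 0.117). MRPS6, a small-subunit protein that contacts S18 in bacteria, had 37.4, 38.6 and 39.8 CPM in trametinib and 35.6, 34.3 and 33.5 CPM in DMSO. Its fold change of 0.16 ± 0.07 did not pass the test (edgeR adjusted p = 0.0617) although the libraries did not overlap, and it passed, at 0.18, with RLE scaling (0.0423), with library size only (0.0424) and with DESeq2 (0.0490).

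The same question was asked in MiaPaca2, where the falls were deeper. Of the 78 genes 59 fell, 4 (MRPL23, MRPS6, MRPL13 and MRPL17) rose and 15 did not pass edgeR's test, while over all genes 63.6% were called, 29.5% lower and 34.1% higher. The median log2 fold change was -0.36, against 0.05 over all genes, with a range of -1.30 to 0.57. All 3 trametinib libraries lay below all 3 DMSO libraries in 60 genes (29.8% of all genes) and above in 3 (34.6% of all genes). Called changes had a median size of 0.44 on the log2 scale, and 2 of them, in MRPS2 and MRPS26, reached 2-fold. Without MiaPaca2 DMSO replicate 2, the library that stood apart, 60 fell and 4 rose, with a median of -0.38, and 62.9% of all genes were called.

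MRPS2, the homolog of bacterial S2 in the small subunit (ENSG00000122140), fell furthest. It had 79.7, 82.3 and 74.6 CPM in MiaPaca2 trametinib against 190, 185 and 207 CPM in MiaPaca2 DMSO, a log2 fold change of -1.30 ± 0.05 (edgeR adjusted p = 9.45e-18). MRPS26 had 36.1, 38.7 and 38.5 CPM in trametinib and 69.4, 70.3 and 89.9 CPM in DMSO (-1.02 ± 0.08, edgeR adjusted p = 4.03e-11), with DMSO replicate 3 above the other two. MRPL3, the homolog of the bacterial protein L3 that reaches towards the peptidyl transferase centre, had 150, 144 and 145 CPM in trametinib and 309, 274 and 290 CPM in DMSO (-0.99 ± 0.04, edgeR adjusted p = 1.82e-16). MRPS34 had 74.6, 80.8 and 77.8 CPM in trametinib and 140, 129 and 159 CPM in DMSO, and fell by 0.87 ± 0.06. MRPS24, which corresponds to bacterial S3, had 11, 11.1 and 12.4 CPM in trametinib and 16.8, 22.3 and 22.2 CPM in DMSO, and fell by 0.83 ± 0.11. In all 5 the trametinib and DMSO libraries were separate.

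The 4 genes that rose in MiaPaca2 rose by less. MRPS6 had 57.9, 58.1 and 57.2 CPM in trametinib and 48.1, 37.4 and 44.5 CPM in DMSO (0.41 ± 0.07, edgeR adjusted p = 1.28e-05), with DMSO replicate 2 the lowest. MRPL17, which corresponds to bacterial L17, had 83.4, 91.2 and 87.5 CPM in trametinib and 68.4, 72.6 and 75.1 CPM in DMSO (0.28 ± 0.05, edgeR adjusted p = 5.52e-05). MRPL13 had 69.5, 78.1 and 72.5 CPM in trametinib and 61.8, 62.4 and 56.4 CPM in DMSO (0.28 ± 0.06, edgeR adjusted p = 8.81e-05). These 3 genes had no overlap between the groups. MRPL23, an exit tunnel protein with few reads, had 3.41, 5.28 and 4.24 CPM in trametinib and 3.46, 2.13 and 3.06 CPM in DMSO, so its groups overlapped. Its fold change of 0.57 ± 0.21 passed the test (edgeR adjusted p = 0.0214) but was 0.39 without MiaPaca2 DMSO replicate 2 (0.112) and 0.41 without MiaPaca2 trametinib replicate 2 (0.133).

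**Figure D2:**
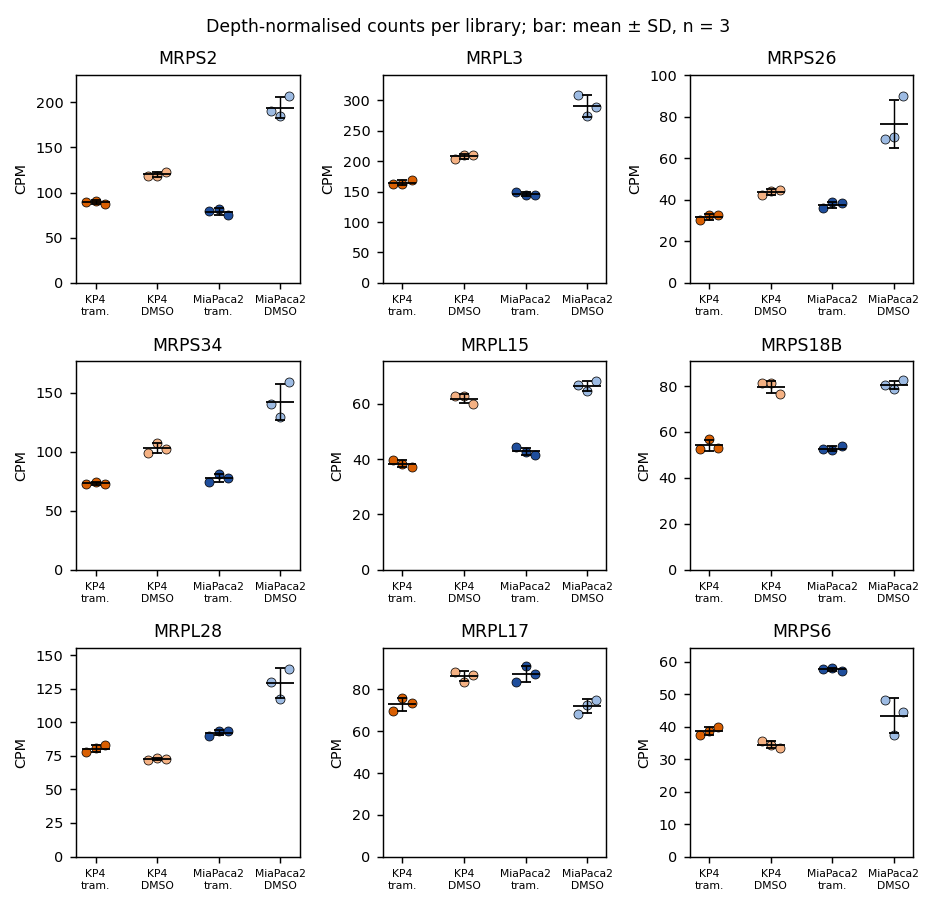
Points are the 3 libraries of each group for 9 genes, in CPM on axes that start at 0, and bars give the mean ± SD (n = 3). MRPS2, MRPL3, MRPS26 and MRPS34 drop further in MiaPaca2 than in KP4, MRPL15 and MRPS18B drop in both, and MRPL28, MRPL17 and MRPS6 include a rise.

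Promoters are shown for the 4 genes with the lowest fold changes in MiaPaca2 and for 2 of those that rose there. They were chosen by fold change and not by motif, and a link between motif and response was not tested. Of the 78 genes 69 had a RefSeq entry (GRCh38.p14, 250 bases before to 50 after the start), with 85 promoters in all. Capitals mark a match, on either strand, to the ETS family motif CCGGAAG (also bound by GABPA), the NRF1 motif GCGCANGCG, the YY1 motif AAGATGGCG or the E-box CACGTG that MYC and MAX bind. The E-box reads the same on both strands, NRF1 matches on the 2 strands can overlap, and an ETS motif that ends in AAG can share those 3 letters with a YY1 motif.
MRPS2, chr9:135499715-135500014, plus strand: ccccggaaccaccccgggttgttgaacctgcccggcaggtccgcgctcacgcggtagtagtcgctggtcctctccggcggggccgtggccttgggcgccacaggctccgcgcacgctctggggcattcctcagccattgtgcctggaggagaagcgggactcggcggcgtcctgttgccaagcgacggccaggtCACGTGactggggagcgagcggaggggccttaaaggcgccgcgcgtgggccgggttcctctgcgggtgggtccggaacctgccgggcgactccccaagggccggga
MRPS26, chr20:3045802-3046101, plus strand: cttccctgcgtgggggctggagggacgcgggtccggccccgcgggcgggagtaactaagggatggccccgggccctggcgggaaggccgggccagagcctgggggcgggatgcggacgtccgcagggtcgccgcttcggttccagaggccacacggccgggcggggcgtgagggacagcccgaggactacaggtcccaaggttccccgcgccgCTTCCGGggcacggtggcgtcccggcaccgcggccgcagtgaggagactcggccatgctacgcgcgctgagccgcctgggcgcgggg
MRPL3, chr3:131502922-131503221, minus strand: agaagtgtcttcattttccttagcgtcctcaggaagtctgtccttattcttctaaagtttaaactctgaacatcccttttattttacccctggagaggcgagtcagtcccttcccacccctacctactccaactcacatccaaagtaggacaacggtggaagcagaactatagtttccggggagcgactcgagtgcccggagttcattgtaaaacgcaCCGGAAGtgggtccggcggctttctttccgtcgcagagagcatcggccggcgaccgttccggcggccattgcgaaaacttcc
MRPS34, chr16:1773085-1773384, minus strand: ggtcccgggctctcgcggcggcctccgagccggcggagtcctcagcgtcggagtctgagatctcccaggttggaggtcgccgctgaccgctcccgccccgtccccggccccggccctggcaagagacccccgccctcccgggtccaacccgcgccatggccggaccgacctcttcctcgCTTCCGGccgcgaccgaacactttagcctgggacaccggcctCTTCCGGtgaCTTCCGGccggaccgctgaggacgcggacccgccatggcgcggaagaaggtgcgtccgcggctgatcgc
MRPL17, chr11:6683291-6683590, minus strand: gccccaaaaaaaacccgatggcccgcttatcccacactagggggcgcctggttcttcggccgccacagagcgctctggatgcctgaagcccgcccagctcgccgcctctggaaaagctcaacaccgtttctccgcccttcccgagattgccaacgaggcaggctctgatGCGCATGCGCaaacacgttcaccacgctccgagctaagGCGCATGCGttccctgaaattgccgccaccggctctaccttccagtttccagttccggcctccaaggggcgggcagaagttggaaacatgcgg
MRPS6, chr21:34073328-34073627, plus strand: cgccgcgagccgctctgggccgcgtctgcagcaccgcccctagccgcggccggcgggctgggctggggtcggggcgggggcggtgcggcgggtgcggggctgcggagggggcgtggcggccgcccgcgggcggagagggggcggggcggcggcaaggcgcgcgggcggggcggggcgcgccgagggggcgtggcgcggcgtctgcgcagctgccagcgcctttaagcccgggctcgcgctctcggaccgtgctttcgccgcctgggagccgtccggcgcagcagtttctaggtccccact
MRPS2 held an E-box that begins 56 bases before the start, and its other listed promoter held none of the motifs. MRPS26 and MRPL3 each held 1 ETS motif, beginning 37 and 32 bases before the start. MRPS34 held 3 ETS motifs, beginning 71, 29 and 19 bases before it. MRPL17 held 3 matches to the NRF1 motif, 2 that overlap on opposite strands and begin 81 and 80 bases before the start and 1 that begins 43 bases before it, and the MRPS6 promoter had no match to these letters. Over the whole group the ETS motif was in 38.8% of the 85 promoters, against 10.3% of all 35116 promoters and 16.1% of the 16821 promoters of tested genes. The YY1 motif was in 15.3%, against 1.75% and 3.20%, the NRF1 motif in 17.6%, against 7.52% and 12.3%, and the E-box in 10.6%, against 7.26% and 9.11%. At least 1 of the 4 motifs was found in 49 of the 69 genes. The 30 genes with an ETS motif had a median log2 fold change of -0.22 in KP4 and -0.34 in MiaPaca2, and those without it -0.20 and -0.38. For the 9 genes with an E-box the medians were -0.24 in KP4 and -0.47 in MiaPaca2, and for those without it -0.20 and -0.35. For the 13 with a YY1 motif they were -0.25 and -0.40, against -0.18 and -0.34 without it, and for the 14 with an NRF1 motif -0.21 and -0.32, against -0.21 and -0.38 without it.

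Across both lines 46 of the 78 genes fell in KP4 and in MiaPaca2, where 16.9% of all genes did. A further 12 fell in MiaPaca2 and did not pass the test in KP4 (MRPL1, MRPL16, MRPL18, MRPL34, MRPL38, MRPL41, MRPL50, MRPL55, MRPS9, MRPS16, MRPS18C and MRPS22). The opposite held for 3 genes, MRPL49, MRPL52 and MRPL54, which fell in KP4 and did not pass in MiaPaca2. MRPL13, MRPL23 and MRPS6 rose in MiaPaca2 and did not pass in KP4, MRPL28 rose in KP4 and fell in MiaPaca2, and MRPL17 fell in KP4 and rose in MiaPaca2. Except for the fall in both lines, the share of all genes with each pattern was not computed. These counts are therefore not read as a result about the 78 genes. The remaining 12 (MRPL27, MRPL40, MRPL43, MRPL44, MRPL46, MRPL53, MRPS14, MRPS17, MRPS25, MRPS28, MRPS33 and MRPS36) passed in neither line. Some passed in other settings. With only the KP4 libraries in the fit, MRPL27 and MRPL40 were lower in KP4 (both -0.14, edgeR adjusted p = 0.0145), as was MRPL23 (-0.49, 0.0159). In MiaPaca2 MRPL44 was lower with RLE scaling (-0.14, 0.0456) and MRPS28 without MiaPaca2 DMSO replicate 1 (-0.34, 0.0468). MRPS36 is now known mainly as a component of the 2-oxoglutarate dehydrogenase complex, and it was at 0.00 ± 0.11 in KP4 and -0.22 ± 0.11 in MiaPaca2. The 2 lines share no libraries, and across the 78 genes their fold changes had a Pearson r of 0.46 and a Spearman rho of 0.51, which describe these genes and are no test over samples.

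The difference of the responses, KP4 minus MiaPaca2, was tested for each gene as an interaction. It was positive, with the MiaPaca2 response the more negative, for 27 of the 78 genes and negative for 4, with 47 not past edgeR's test. Over all genes 36.1% were called, 16.2% positive and 19.9% negative. The median difference was 0.13, against -0.05 over all genes, and 58 of the 78 had the more negative fold change in MiaPaca2. Of the 27 positive genes 20 fell in both lines, 6 (MRPL18, MRPL34, MRPL38, MRPL55, MRPS9 and MRPS22) fell in MiaPaca2 and did not pass in KP4, and 1 was MRPL28. Without MiaPaca2 DMSO replicate 2 the counts were 30 positive and 4 negative, and the share of all genes called was also larger, at 41.3%.

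MRPS2 had the largest positive difference, 0.88 ± 0.07 (edgeR adjusted p = 1.97e-10). In KP4 it had 89.9, 90.8 and 87.2 CPM in trametinib against 118, 118 and 123 CPM in DMSO and fell by 0.42 ± 0.05, so the trametinib libraries of both lines lay near each other while the DMSO libraries did not. MRPL3 followed at 0.66 ± 0.06, with 163, 163 and 169 CPM in KP4 trametinib and 204, 210 and 210 CPM in KP4 DMSO. MRPL28 differed by 0.63 ± 0.08 (edgeR adjusted p = 3.04e-07), since in MiaPaca2 it had 89.8, 93.4 and 93.3 CPM in trametinib against 130, 117 and 140 CPM in DMSO and fell by 0.48 ± 0.05. MRPS26 differed by 0.56 ± 0.11 and MRPL19, a large-subunit protein of bacterial type, by 0.50 ± 0.08. MRPL19 had 58.1, 55.3 and 56.8 CPM in KP4 trametinib and 66.4, 64.8 and 64.5 CPM in KP4 DMSO, and 52.6, 50 and 52.6 CPM in MiaPaca2 trametinib and 91.7, 79.5 and 81.6 CPM in MiaPaca2 DMSO.

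At the other end MRPL17 moved in opposite directions. In KP4 it had 69.5, 75.8 and 73.5 CPM in trametinib against 88.6, 83.8 and 86.8 CPM in DMSO (-0.25 ± 0.05, edgeR adjusted p = 3.30e-04), and with the rise in MiaPaca2 its difference was -0.52 ± 0.07 (edgeR adjusted p = 3.59e-06). MRPL13 had a difference of -0.36 ± 0.08 and was at -0.07 ± 0.05 in KP4. MRPL49 had -0.25 ± 0.07, a call lost without KP4 trametinib replicate 1 (-0.18, edgeR adjusted p = 0.0807). MRPL23 had the most negative difference, -1.06 ± 0.30 (edgeR adjusted p = 0.00643), from levels of 2.11, 2.65 and 3.15 CPM in KP4 trametinib and 3.84, 4.08 and 3.22 CPM in KP4 DMSO. MRPL15 and MRPS18B, the genes with the strongest falls in KP4, had differences of -0.06 ± 0.08 and 0.05 ± 0.07 (edgeR adjusted p = 0.589 and 0.603), and in MiaPaca2 they fell by 0.63 ± 0.06 and 0.61 ± 0.05.

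**Figure D3:**
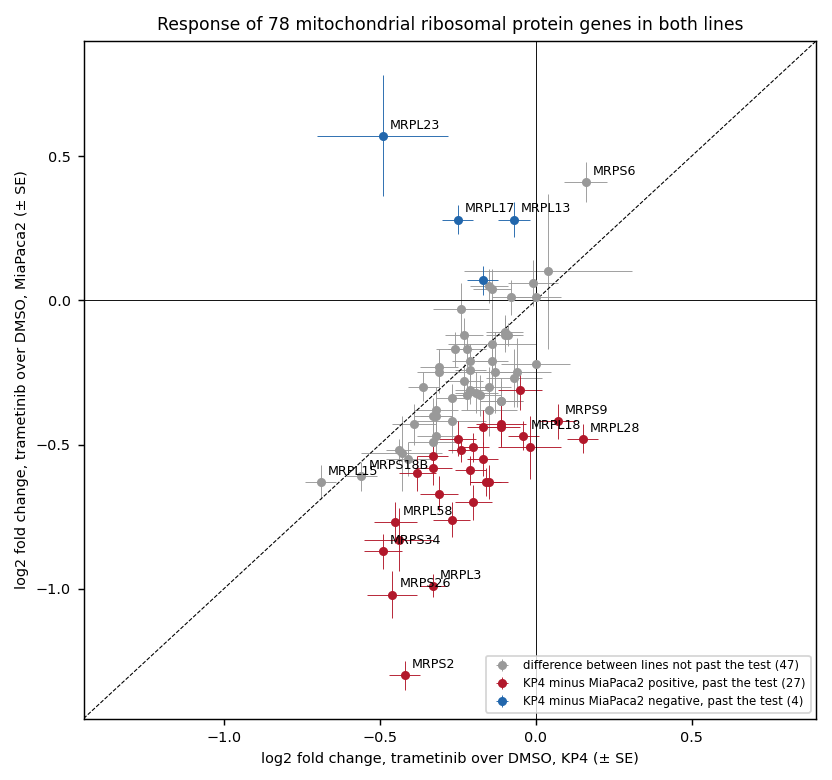
Each point is 1 gene, with the log2 fold change of trametinib over DMSO in KP4 on the horizontal axis and in MiaPaca2 on the vertical axis, bars ± SE, and the dashed line where both are equal. Red points (27) have a positive and blue points (4) a negative difference past edgeR's test; MRPS2 lies farthest below the line and MRPL23 farthest above it.

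Genes of both subunits fell in both lines, where 23.6% of all genes were called lower in KP4 and 29.5% in MiaPaca2. Among the 49 MRPL genes 32 fell and 1 rose in KP4 (median -0.21), and 37 fell and 3 rose in MiaPaca2 (median -0.38). Among the 29 MRPS genes 18 fell and 0 rose in KP4 (median -0.21), and 22 fell and 1 rose in MiaPaca2 (median -0.31). The 45 genes of bacterial-type proteins had 29 lower and 1 higher in KP4 and 37 lower and 4 higher in MiaPaca2, with medians of -0.21 and -0.35. The 33 genes of mitochondrion-specific proteins had 21 lower in KP4 and 22 lower in MiaPaca2, none higher in either, with medians of -0.19 and -0.40. These 33 include MRPS18A and MRPS18B, although both are relatives of bacterial S18. MRPS30 and MRPS18A are small-subunit genes by symbol whose proteins sit in the large subunit. MRPS30 had 101, 99.5 and 99.2 CPM in KP4 trametinib against 134, 134 and 138 CPM in KP4 DMSO (-0.44 ± 0.04), and it fell by 0.52 ± 0.04 in MiaPaca2.

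The stalk of the large subunit recruits translation factors. Of its 4 genes 3 fell in each line, MRPL10, MRPL11 and MRPL12, and MRPL53, at 1.15 to 1.98 CPM in all libraries, did not pass in either. Called lower were 23.6% of all genes in KP4 and 29.5% in MiaPaca2. MRPL10, which anchors the stalk, had 57.5, 54.4 and 59.5 CPM in KP4 trametinib and 69.1, 73.3 and 72.5 CPM in KP4 DMSO (-0.33 ± 0.06), and 45.9, 52.0 and 47.8 CPM in MiaPaca2 trametinib and 69.5, 70.5 and 78.1 CPM in MiaPaca2 DMSO (-0.58 ± 0.06). Both pairs of groups were separate. MRPL12, which also binds the mitochondrial RNA polymerase, was at -0.43 ± 0.13 in KP4 and -0.53 ± 0.13 in MiaPaca2. Its KP4 call was lost without KP4 trametinib replicate 2 (edgeR adjusted p = 0.0523), and that of MRPL11 (-0.17 ± 0.05) without KP4 DMSO replicate 2 or 3 or KP4 trametinib replicate 1 (0.0570 to 0.152).

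At the exit tunnel, where the new chain leaves, 4 of 6 genes fell in each line and MRPL23 rose in MiaPaca2. The shares called lower over all genes were 23.6% in KP4 and 29.5% in MiaPaca2. MRPL39 fell by 0.39 ± 0.07 in KP4 and by 0.43 ± 0.07 in MiaPaca2, and MRPL24 by 0.27 ± 0.05 and 0.34 ± 0.05. MRPL45, which holds the ribosome at the inner membrane, had 45.5, 46.8 and 46.1 CPM in KP4 trametinib and 50.7, 53.8 and 51.0 CPM in KP4 DMSO, and 40.2, 40.5 and 38.1 CPM in MiaPaca2 trametinib and 59.2, 56.0 and 58.7 CPM in MiaPaca2 DMSO. It fell by 0.17 ± 0.05 in KP4, a call lost without KP4 DMSO replicate 2 or KP4 trametinib replicate 1 (edgeR adjusted p = 0.0742 and 0.0983), and by 0.55 ± 0.06 in MiaPaca2. MRPL22 fell by 0.26 ± 0.06 in KP4 and by 0.17 ± 0.06 in MiaPaca2, where its groups overlapped and the call was lost without MiaPaca2 DMSO replicate 1 or 3 or MiaPaca2 trametinib replicate 1 or 3 (0.0512 to 0.0680). MRPL44, which has a ribonuclease III fold, was at -0.10 ± 0.06 and -0.11 ± 0.06 and did not pass in either line.

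Of 5 genes of the central protuberance 1 fell in KP4 (MRPL48, by 0.33 ± 0.08), near the 23.6% of all genes called lower there, and 3 fell in MiaPaca2 (MRPL18, MRPL38 and MRPL48), against 29.5% of all genes. MRPL18, whose bacterial homolog binds 5S ribosomal RNA, had 68.7, 69.6 and 71.9 CPM in KP4 trametinib and 74.5, 67.9 and 72.9 CPM in KP4 DMSO, which overlapped. In MiaPaca2 it had 52.1, 52.5 and 53.2 CPM in trametinib and 72.3, 69.9 and 76.9 CPM in DMSO and fell by 0.47 ± 0.05, and the difference between the lines was 0.44 ± 0.07 (edgeR adjusted p = 4.43e-05). MRPL38 differed likewise, by 0.49 ± 0.15 (edgeR adjusted p = 0.00987), with levels of 20.6, 18.0 and 19.9 CPM in KP4 trametinib, 18.7, 19.3 and 21.2 CPM in KP4 DMSO, 13.8, 14.5 and 15.0 CPM in MiaPaca2 trametinib and 16.6, 23.7 and 21.4 CPM in MiaPaca2 DMSO. MRPL40 and MRPL46 did not pass in either line. Of the MRPS18 paralogs, MRPS18A fell by 0.23 ± 0.06 in KP4 and 0.28 ± 0.06 in MiaPaca2, and MRPS18C, the closest to the bacterial protein, was at -0.07 ± 0.09 in KP4 and fell by 0.27 ± 0.10 in MiaPaca2. The MRPS18C call was lost without MiaPaca2 DMSO replicate 1 (edgeR adjusted p = 0.0828) or MiaPaca2 trametinib replicate 1 (0.152). In the decoding region MRPS12 fell by 0.22 ± 0.06 in KP4 and 0.17 ± 0.06 in MiaPaca2, where the groups overlapped and the call was lost without MiaPaca2 DMSO replicate 3 (0.0605). MRPS28, a relative of bacterial S1, had 6.37 to 11.2 CPM over all libraries and did not pass in either line.

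The 5 proteins of the particle with other symbols had 2 lower in KP4 and 4 lower in MiaPaca2 and none higher. The shares of all genes called lower were 23.6% in KP4 and 29.5% in MiaPaca2. PTCD3, a pentatricopeptide repeat protein near the messenger RNA entry of the small subunit, had 44.9, 43.2 and 41.0 CPM in KP4 trametinib and 45.2, 46.8 and 44.1 CPM in KP4 DMSO, and 67.1, 66.6 and 65.6 CPM in MiaPaca2 trametinib and 122, 102 and 116 CPM in MiaPaca2 DMSO. It was at -0.08 ± 0.06 in KP4 and fell by 0.77 ± 0.06 in MiaPaca2, and the difference of 0.69 passed the test (edgeR adjusted p = 5.08e-07). DAP3, the GTP-binding protein of the small subunit, was at 0.03 ± 0.04 in KP4 and -0.14 ± 0.04 in MiaPaca2. AURKAIP1 fell by 0.17 ± 0.05 and 0.43 ± 0.05 and GADD45GIP1 by 0.24 ± 0.07 and 0.39 ± 0.07, both KP4 calls being lost without KP4 trametinib replicate 1 (edgeR adjusted p = 0.150 and 0.0748). CHCHD1 was at -0.03 ± 0.08 and -0.10 ± 0.08 and did not pass.

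**Figure D4:**
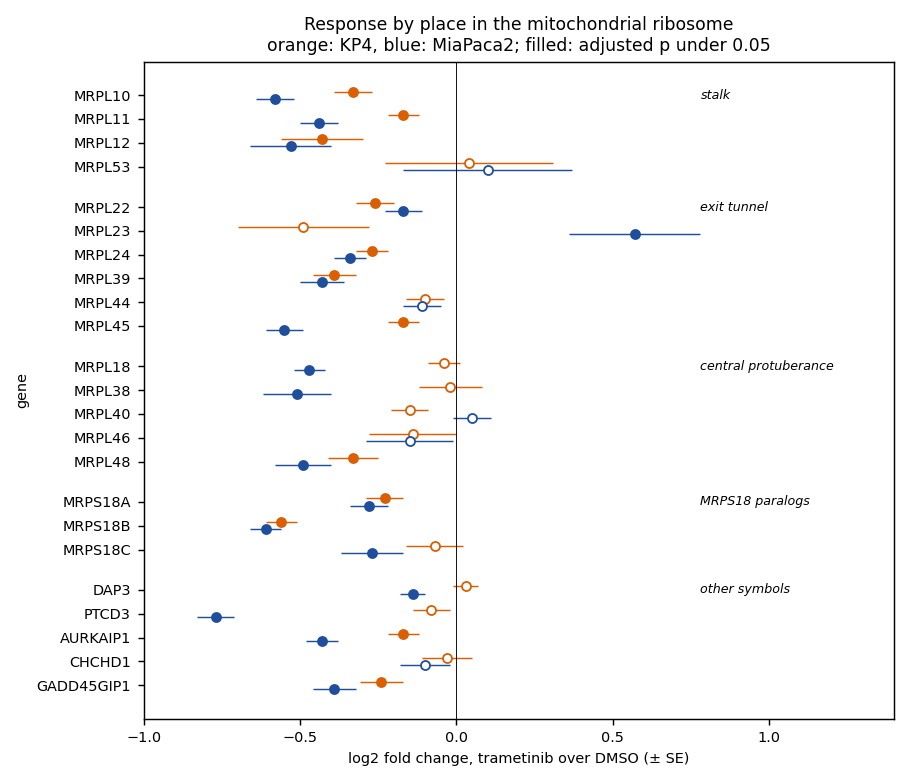
Points give the log2 fold change of trametinib over DMSO (± SE) in KP4 (orange) and MiaPaca2 (blue) for 23 genes grouped by place in the particle, filled where edgeR's adjusted p is under 0.05. Most blue points lie left of their orange partners, MRPL23 lies on opposite sides of 0, and the open points of MRPL44, MRPL46, MRPL40, MRPL53 and CHCHD1 passed in neither line.

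Summed over the 78 genes, the level was 4209, 4234 and 4259 CPM in KP4 trametinib against 4972, 4970 and 4961 CPM in KP4 DMSO, which is 14.8% lower in trametinib. In MiaPaca2 it was 4047, 4199 and 4088 CPM in trametinib against 5530, 5349 and 5712 CPM in DMSO, 25.7% lower in trametinib, or 26.9% without MiaPaca2 DMSO replicate 2. The groups did not overlap in either line, and the trametinib sums of both lines lay within 4047 to 4259 CPM. The MRPL sum was 14.5% lower in KP4 and 24.7% lower in MiaPaca2, and the MRPS sum 15.2% and 27.1% lower. The 79 cytosolic ribosomal protein genes, of which 77 were tested, moved the same way, beside 23.6% of all genes called lower in KP4 and 29.5% in MiaPaca2. In KP4 51 fell and 0 rose (median -0.21, summed level 12.2% lower), and in MiaPaca2 59 fell and 1 rose (median -0.27, summed level 16.3% lower, or 19.1% without MiaPaca2 DMSO replicate 2). So the KP4 median equalled that of the mitochondrial ribosomal protein genes, and no test of one group against the other was made.

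The 13 protein genes of the mitochondrial genome, which these ribosomes translate, were higher in sum. Their summed level was 47961, 49227 and 50434 CPM in KP4 trametinib against 40148, 38511 and 38158 CPM in KP4 DMSO, 26.4% higher. It was 35130, 32924 and 35096 CPM in MiaPaca2 trametinib against 20436, 29588 and 19564 CPM in MiaPaca2 DMSO, 48.2% higher, or 71.9% without DMSO replicate 2, which had the highest value of its group. In KP4 3 of the 13 rose and 1 fell by edgeR's test (median 0.22), near the 23.6% of all genes called higher there. In MiaPaca2 10 of the 13 rose (median 0.50), where 34.1% of all genes were called higher.

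**Figure D5:**
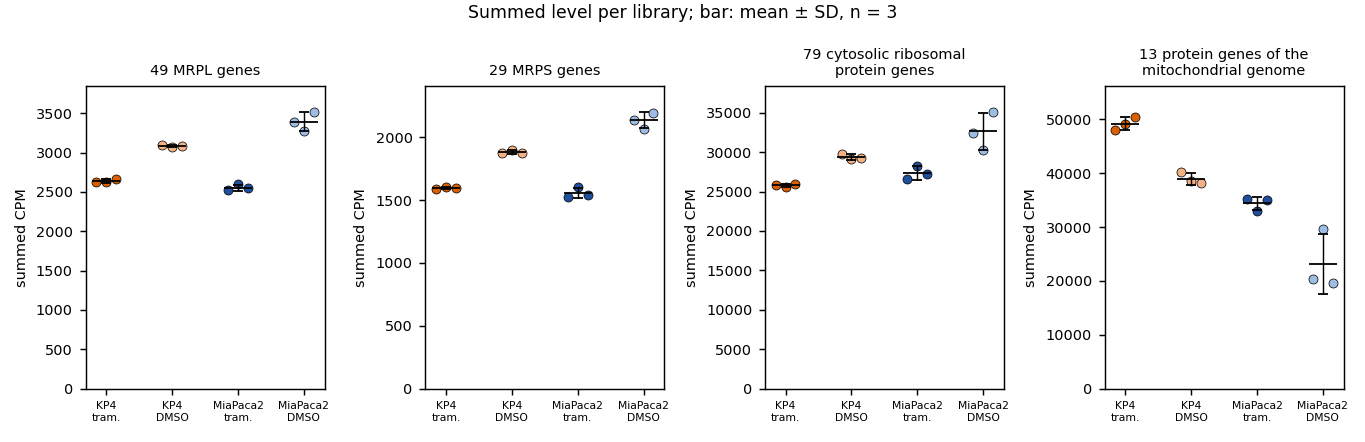
Summed CPM per library for the 49 MRPL genes, the 29 MRPS genes, the 79 cytosolic ribosomal protein genes and the 13 protein genes of the mitochondrial genome, with mean ± SD (n = 3) on axes that start at 0. The first 3 sums are lower in trametinib than in DMSO in both lines and the last is higher; MiaPaca2 DMSO replicate 2, at 29588 CPM, stands above its group in the last panel.

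Genes that build or serve the mitochondrial ribosome also fell in part. Of 28 assembly and ribosomal RNA maturation factors 15 fell and 1 rose in KP4 (median -0.17), where 23.6% of all genes were called lower, and 20 fell and 1 rose in MiaPaca2 (median -0.26), where 29.5% were. The ribosomal RNA methyltransferases MRM2 and MRM3 fell by 0.49 ± 0.06 and 0.41 ± 0.06 in KP4 and by 0.66 ± 0.06 and 0.78 ± 0.06 in MiaPaca2, and METTL17, a small-subunit assembly factor, by 0.30 ± 0.06 and 0.69 ± 0.06. The gene that rose was the same in both lines. MALSU1, which binds the large subunit and blocks early joining of the subunits, had 76.2, 73.6 and 72.2 CPM in KP4 trametinib against 50.4, 54.5 and 51.8 CPM in KP4 DMSO (0.50 ± 0.05, edgeR adjusted p = 1.80e-08), and 83.1, 83.9 and 85.0 CPM in MiaPaca2 trametinib against 61.5, 63.5 and 69.2 CPM in MiaPaca2 DMSO (0.38 ± 0.05, edgeR adjusted p = 8.90e-07).

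Of 20 mitochondrial translation factors 8 fell and 3 rose in KP4 (median -0.04), where 47.2% of all genes were called, 23.6% in each direction, so the count there lies near that over all genes. In MiaPaca2 15 fell and 1 rose (median -0.39), where 29.5% of all genes were called lower and 34.1% higher. The difference between the lines was positive for 11 of them and negative for 0, against 16.2% and 19.9% of all genes. MTIF2, the initiation factor that places the first tRNA, had 47.2, 51.0 and 49.1 CPM in KP4 trametinib and 65.7, 66.4 and 68.6 CPM in KP4 DMSO (-0.45 ± 0.05), and 45.0, 43.3 and 44.2 CPM in MiaPaca2 trametinib and 85.7, 81.3 and 81.3 CPM in MiaPaca2 DMSO (-0.91 ± 0.05, edgeR adjusted p = 7.08e-14). MTRF1L, a release factor, fell by 0.71 ± 0.13 and 0.87 ± 0.14. GFM2, which recycles ribosomes, rose by 0.19 ± 0.06 in KP4 (edgeR adjusted p = 0.0169, or 0.114 without KP4 DMSO replicate 1) and fell by 0.30 ± 0.06 in MiaPaca2, and its difference of 0.48 passed the test (9.88e-05).

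Of 17 regulators of mitochondrial and nuclear genes for mitochondria 16 were tested, and PPARGC1A had at most 0.0374 CPM in any library. In each line 12 fell and 1 rose, with medians of -0.25 in KP4 and -0.36 in MiaPaca2, where 23.6% and 29.5% of all genes were called lower. MYC had 209, 211 and 211 CPM in KP4 trametinib against 311, 318 and 299 CPM in KP4 DMSO (-0.55 ± 0.05), and 191, 179 and 187 CPM in MiaPaca2 trametinib against 351, 413 and 391 CPM in MiaPaca2 DMSO (-1.05 ± 0.05, edgeR adjusted p = 2.71e-16). As with the summed ribosomal protein level, the fall of MYC was deeper in MiaPaca2 (difference 0.50, edgeR adjusted p = 1.21e-06), and its part in the result was not tested. Its partner MAX was at -0.13 ± 0.05 in KP4 and rose by 0.26 ± 0.05 in MiaPaca2. NRF1, a factor of many mitochondrial genes, fell by 0.26 ± 0.08 in KP4 and 0.44 ± 0.09 in MiaPaca2, and GABPA, an ETS factor, by 0.23 ± 0.07 and 0.18 ± 0.07. The calls of NRF1 in KP4, of GABPA in both lines and of MAX in KP4 were lost when single libraries were left out (edgeR adjusted p up to 0.0586, 0.0839, 0.176 and 0.185). The MAX call in KP4 was also lost with RLE scaling, library size only, no filter, the strict filter, DESeq2 and the replicate block (adjusted p = 0.0512 to 0.0837), and that of GABPA in MiaPaca2 with library size only (0.0662).

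The mitochondrial transcription genes TFAM and TFB2M fell in both lines. TFAM, which packages the mitochondrial genome and helps start its transcription, had 105, 98.0 and 95.6 CPM in KP4 trametinib and 143, 149 and 145 CPM in KP4 DMSO (-0.55 ± 0.05), and 81.4, 77.0 and 80.4 CPM in MiaPaca2 trametinib and 134, 121 and 119 CPM in MiaPaca2 DMSO (-0.65 ± 0.05). TFB2M fell by 0.41 ± 0.08 and 0.82 ± 0.08. The nuclear receptor gene ESRRA fell by 0.63 ± 0.08 and 0.39 ± 0.08. PPARGC1B, a coactivator of such receptors, rose by 0.28 ± 0.07 in KP4 (edgeR adjusted p = 0.00254) and was at 0.07 ± 0.07 in MiaPaca2, a difference that did not pass the test (0.22, edgeR adjusted p = 0.111).

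The last comparison set the lines against each other without the drug. In DMSO 12 of the 78 genes were higher and 33 lower in KP4 than in MiaPaca2 by edgeR's test, and over all genes 63.0% were called, 31.9% higher and 31.1% lower. The median log2 fold change, KP4 over MiaPaca2, was -0.09, against 0.02 over all genes, and the range was -0.83 to 0.73. All 3 KP4 libraries lay above all 3 MiaPaca2 libraries in 12 genes (34.0% of all genes) and below in 35 (32.1% of all genes). With RLE scaling 8 were higher and 35 lower, with DESeq2 8 and 34, with library size only 14 and 32, with only the DMSO libraries in the fit 7 and 33, and without MiaPaca2 DMSO replicate 2 12 and 36. Without KP4 trametinib replicate 1, which enters through the shared fit, 8 were higher and 33 lower. In these alternative fits 60.6% to 63.4% of all genes were called. With a log2 change of at least 0.32 in size asked as well, 2 were higher and 22 lower, and the matching share of all genes was not computed.

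MRPL27, whose bacterial homolog reaches the peptidyl transferase centre, was the furthest above, with 50.4, 48.1 and 45.9 CPM in KP4 DMSO against 29, 29.1 and 29 CPM in MiaPaca2 DMSO (0.73 ± 0.06, edgeR adjusted p = 3.45e-10). MRPL13 followed, with 93.0, 91.3 and 88.6 CPM in KP4 DMSO and 61.8, 62.4 and 56.4 CPM in MiaPaca2 DMSO (0.59 ± 0.05). MRPL49 (0.30 ± 0.05), MRPS5 (0.29 ± 0.05) and MRPS7 (0.27 ± 0.05) were also higher in KP4. At the low end MRPL28 had 72.0, 73.2 and 72.5 CPM in KP4 DMSO and 130, 117 and 140 CPM in MiaPaca2 DMSO (-0.83 ± 0.05, edgeR adjusted p = 7.73e-13). MRPS26 (-0.81 ± 0.08), MRPS2 (-0.70 ± 0.05), MRPS9 (-0.69 ± 0.06) and MRPS27 (-0.63 ± 0.05) were also lower in KP4. Set beside them, the differences of responses were 0.63 for MRPL28, 0.56 for MRPS26, 0.88 for MRPS2, 0.49 for MRPS9 and 0.47 for MRPS27, but both contrasts use the same DMSO libraries.

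Some values are uncertain for reasons of counting. The sources used here do not give the counting program or its use of strand, and 29 of the 78 genes overlap exons of another gene on the opposite strand and 16 on the same strand. The largest opposite-strand shares of exon length were 47.04% for MRPS18A (RSPH9), 40.2% for MRPS18C (ABRAXAS1), 32.75% for MRPL43 (SEMA4G) and 31.33% for MRPL51 (NCAPD2). MRPS2 overlaps opposite-strand exons of C9orf116 over 4.22% of its own exon length and of AL161452.1 over 10.15%. On the same strand MRPS6 overlaps exons of SLC5A3 over 6.35% and of AP000317.2 over 6.84% of its exon length. MRPS24 and the read-through gene URGCP-MRPS24 share 23.19% of the exon length of MRPS24 on the same strand, and MRPL28 and TMEM8A share 7.33% of that of MRPL28. Of 34 genes with named pseudogenes, 2 had pseudogenes with at least 1% of the counts of the gene, MRPS31 (15.1%) and MRPL45 (2.33%).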

How the data were processed

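The deposited file holds raw read counts of 12 libraries by Ensembl gene. STAR, DESeq2 and the build GRCh38 (hg38) are named in the submitters' processing notes. Not given in the sources used here are their versions, the counting program, its annotation and its strand setting. Per the labels' protocols, libraries were made with a Tecan mRNA kit. Gene types, symbols and positions came from GENCODE 29, and current symbols gave the same 78 genes.

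Counts were filtered with filterByExpr, scaled with TMM and tested with edgeR 4.0.16 (R 4.3.3; quasi-likelihood test, robust shrinkage, 1 mean per group over all 12 libraries), with Benjamini-Hochberg adjustment over all 16133 genes tested and a threshold of 0.05. The scripts were tested on simulated counts. SD refers to 3 libraries a group, and no pair of libraries agreed within sampling noise by a chi-square test. SE comes from the fit over all 12 libraries, in which the groups share 1 estimate of the spread for each gene. It is therefore not the spread of the compared groups alone. CPM values are TMM-scaled; CPM per kb divides by the length of the principal transcript. Depth sets the precision: genes at a few CPM have a larger SE.

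The members and lists were chosen with earlier results of these data known. Named are, by a rule, the 5 highest and 5 lowest called genes of each contrast, fixed structural groups, all proteins of the particle under other symbols, and of the other lists the 2 highest and 2 lowest called in each line with MYC, NRF1, GABPA and TFAM; other genes are named to account for every member, after their values were seen. Alternatives were RLE or library-size scaling, no or a strict filter (mean of 5 CPM), limma-voom 3.58.1, DESeq2 1.42.0, no robust shrinkage, only the libraries compared, a replicate block, each library left out, and calls with a log2 change of at least 0.32 in size.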

Additional observations from a re-analysis of the deposited data

Results flagged for a closer look

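Of the 27 genes with a positive and the 4 with a negative difference, those that the naming rule covers are listed, because their response to trametinib differed between the lines by edgeR's test of the difference itself, KP4 minus MiaPaca2 on the log2 scale. A positive difference, with the more negative response in MiaPaca2, was found for MRPS2 (0.88), MRPL3 (0.66), MRPL28 (0.63), MRPS26 (0.56), MRPL19 (0.50), MRPL38 (0.49), MRPS9 (0.49), MRPS27 (0.47), MRPL18 (0.44), MRPS24 (0.39), MRPS34 (0.39), MRPL45 (0.38), MRPL58 (0.31), MRPL11 (0.27) and MRPL10 (0.26). The other 12 positive differences lay between 0.21 (MRPS35) and 0.49 (MRPL2). A negative one was found for MRPL23 (-1.06), MRPL17 (-0.52), MRPL13 (-0.36) and MRPL49 (-0.25). The MRPS24 call was lost with library size only, limma-voom, no robust shrinkage, the replicate block and without any 1 of 8 of the 12 libraries (adjusted p = 0.0514 to 0.130). The MRPL10 call was lost without KP4 DMSO replicate 1, KP4 trametinib replicate 3, MiaPaca2 DMSO replicate 3 or MiaPaca2 trametinib replicate 1 (0.0508 to 0.0646), and that of MRPL49 without KP4 trametinib replicate 1 (0.0807).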

How the results depend on the processing

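With a log2 change of at least 0.32 in size asked as well, the count of called genes was 18 in place of 51 in KP4 and 24 in place of 45 in the DMSO baseline, as the called changes are small. The matching shares of all genes were not computed. The summed change in KP4 was -14.0% with library size only and -13.8% with RLE scaling. When 1 library was left out, 43 to 57 genes were called in KP4, 62 to 67 in MiaPaca2, 26 to 34 in the difference and 39 to 48 in the baseline. Of all genes tested in these fits, 40.0% to 50.3% were called in KP4 and 58.3% to 62.9% in MiaPaca2. The matching shares were 31.2% to 41.3% in the difference and 57.6% to 62.9% in the baseline. The summed change ran from -15.0% to -14.5% in KP4 and from -26.9% to -24.4% in MiaPaca2. Leaving out libraries for the sums was chosen after seeing the data. Every other setting kept the counts of called genes within 1.5 times. Replicate numbers did not pair the libraries (same-number correlations -0.0238 to 0.0210), and the replicate block gave 51, 63, 28 and 44 calls in the 4 contrasts. With that block 45.7%, 62.6%, 34.5% and 61.8% of all genes were called. No called value of a named gene changed sign. Some values near 0 that did not pass the test did, among them that of MRPL53 in KP4 without KP4 DMSO replicate 3 or KP4 trametinib replicate 2. Among single named genes, 85 values lost and 38 gained a call when 1 library was left out, against 2805 that kept theirs, and 21 lost and 25 gained one in other settings, against 2081; the cause was not tested. The strict filter left out MRPL23 and MRPL53, whose depth allows only large changes to be detected.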
